A study of Homo sapiens with 12 samples.

Results

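The genes of 10 integrin subunits, ITGA2, ITGA3, ITGA5, ITGA6, ITGAV, ITGB1, ITGB3, ITGB4, ITGB5 and ITGB6, were followed in the human breast cancer line SK-BR-3, in its drug-resistant derivative SK/EPI and in SK/EPI cells after silencing of the drug transporter BCRP (gene ABCG2). They were chosen by symbol from 58735 genes, each symbol being matched to its Ensembl identifier through GENCODE 29, and all 10 were present in both deposited tables. SK-BR-3 is an established epithelial line that overexpresses the receptor ERBB2, and SK/EPI was raised from it by stepwise selection with rising doses of epirubicin, an anthracycline that poisons topoisomerase II. One table held 3 SK-BR-3 and 3 SK/EPI libraries, neither of them transfected. The other held SK/EPI cells given a control siRNA (labelled siNC, written here SK/EPI-siControl, 3 libraries) or a BCRP siRNA (SK/EPI-siBCRP, 3 libraries), both with Lipofectamine RNAiMax for 48 h. All libraries were made from poly-A RNA. SK/EPI is 1 selected line, so a difference from SK-BR-3 may belong to that selection as well as to resistance, and the labels do not say whether the 3 libraries of a group came from separate cultures, so p-values measure only the spread between these libraries.

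Integrins are cell-surface receptors made of 1 α and 1 β chain, which bind proteins of the extracellular matrix outside the cell and link to the actin or keratin cytoskeleton inside it. The pair a cell makes sets what it can hold: α2β1 binds collagens, α3β1 and α6β4 bind laminins, α5β1 binds fibronectin at its RGD (Arg-Gly-Asp) sequence, and αv with β1, β3, β5, β6 or β8 binds vitronectin, fibronectin, osteopontin or latent TGF-β. The α6β4 pair anchors epithelial cells to the basement membrane at hemidesmosomes, while most other pairs gather in focal adhesions and signal through FAK and SRC kinases. In breast epithelium these receptors are known for holding the cell layer on its basement membrane and for carrying survival signals from it.

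Most β chains signal through a short cytoplasmic tail that holds 1 or more NPXY motifs (Asn-Pro-any residue-Tyr), among them the docking site for talin. The last 50 codons of the 3 β members that held the motif and were above the floor of detection were read from the GENCODE 29 transcripts to show this shared part, with the codons of each NPXY in capitals.
ITGB1 (codons 749 to 798, NPXY at codons 780 and 792): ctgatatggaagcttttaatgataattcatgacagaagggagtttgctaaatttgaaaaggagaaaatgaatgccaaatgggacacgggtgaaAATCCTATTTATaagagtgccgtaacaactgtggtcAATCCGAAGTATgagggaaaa
ITGB5 (codons 750 to 799, NPXY at codon 771): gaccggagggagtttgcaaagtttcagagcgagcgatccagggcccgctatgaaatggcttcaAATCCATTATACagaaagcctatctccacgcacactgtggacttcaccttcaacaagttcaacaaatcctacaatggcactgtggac
ITGB6 (codons 739 to 788, NPXY at codon 759): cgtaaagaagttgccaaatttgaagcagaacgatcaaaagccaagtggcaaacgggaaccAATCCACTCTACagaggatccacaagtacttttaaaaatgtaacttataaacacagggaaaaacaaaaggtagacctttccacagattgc
ITGB3 also held 1 NPXY in its last 50 codons. The ITGB4 transcript encoded 1822 codons, against 788 to 799 in the other β members, and its reading frame held 0 NPXY matches. The β4 tail is the long one that joins plectin and keratin filaments in place of talin and actin.

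The promoters of the members that differed most were unlike in base composition. The windows run from 250 bases before to 50 bases after the RefSeq start site (GRCh38.p14) nearest to the main GENCODE transcript, and capitals mark 3 motifs searched on both strands, TGANTCA (the AP-1 site), GGGCGG (the SP1 GC box) and CACCTG (an E-box form bound by SNAI and ZEB factors).
ITGB6 (chr2:160200223-160200522, minus strand): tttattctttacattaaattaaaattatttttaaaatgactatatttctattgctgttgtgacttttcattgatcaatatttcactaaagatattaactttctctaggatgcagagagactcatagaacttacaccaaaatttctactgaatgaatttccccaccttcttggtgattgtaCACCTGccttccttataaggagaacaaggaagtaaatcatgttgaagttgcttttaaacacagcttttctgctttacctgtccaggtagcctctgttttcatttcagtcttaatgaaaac
ITGA6 (chr2:172427336-172427635, plus strand): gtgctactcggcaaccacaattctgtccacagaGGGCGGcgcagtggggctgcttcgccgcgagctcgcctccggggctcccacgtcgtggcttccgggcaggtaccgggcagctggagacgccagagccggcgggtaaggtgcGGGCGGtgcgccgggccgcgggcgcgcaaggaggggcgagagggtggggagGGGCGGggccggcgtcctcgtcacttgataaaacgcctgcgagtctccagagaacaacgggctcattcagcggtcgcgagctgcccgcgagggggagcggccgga
The ITGB6 window had 31.7% G and C and 0 CpG sites, with 1 CACCTG at -70 and no GC box. The ITGA6 window had 72% G and C, 38 CpG sites and 3 GC boxes. Over 35116 RefSeq promoters of the same length, the medians were 58.7% and 14 CpG sites. GGGCGG was in 45.0% of those promoters, CACCTG in 20.6% and TGANTCA in 7.71%. The printed matches do not overlap each other. Windows for ITGA2, ITGA5, ITGAV, ITGB1 and ITGB5 were also matched and had 69.3% to 78.3% G and C and 16 to 39 CpG sites at the start nearest to the main transcript. ITGA5 was the member with a TGANTCA match, at -6, and ITGB5 also held 1 CACCTG, at -215. The window of another ITGA6 start, further from the main transcript, had 53% G and C, 11 CpG sites and CACCTG at -136 and -46. ITGA3, ITGB3 and ITGB4 had no window. A match is a run of letters, and binding was not measured here.

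Levels are given in FPKM, counted fragments scaled to exon length and to the library's total. The length is that of all annotated exons of a gene together, such as 9802 bases for ITGA3 and 15156 for ITGB8. A gene whose transcripts are shorter than that gets a lower FPKM, so orders, sums and shares across genes are approximate. The tables were compared within themselves only, since they may have been normalised separately, and levels across them are set side by side with no test. The test was limma on log2(FPKM + 1) over all genes with enough reads (15823 genes in the SK/EPI versus SK-BR-3 table, 16298 in the siRNA table), with Benjamini-Hochberg adjustment over all of them, and a gene was called at an adjusted p under 0.05. Log2 fold changes on this scale understate the change of low genes. In bulk RNA, fewer cells expressing a gene and less RNA per cell cannot be told apart.

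Libraries held 15830381 to 20545811 reads on genes. All 5 luminal epithelial markers (KRT8, KRT18, KRT19, EPCAM, ERBB2) were above 73.3 FPKM in every library, although ERBB2 was 652 to 662 FPKM in SK-BR-3 and 128 to 136 FPKM in SK/EPI, and KRT19 was 1581 to 1719 and 498 to 519 FPKM. KRT18 was higher instead, with 349 to 367 FPKM in SK-BR-3 and 578 to 614 FPKM in SK/EPI. The defining leukocyte, endothelial, fibroblast and platelet genes PTPRC, VWF, PECAM1, DCN, PF4 and GP9 stayed at or below 0.229 FPKM. The endothelial list still summed to 6.67 to 6.99 FPKM in SK-BR-3 and 27.0 to 28.1 FPKM in SK/EPI, and to 13.9 to 14.1 FPKM in SK/EPI-siControl and 22.3 to 22.5 FPKM in SK/EPI-siBCRP, nearly all of it CDH5. The leukocyte list, nearly all LCP1, summed to 8.84 to 9.37 and 15.1 to 16.4 FPKM in the first table and to 15.8 to 16.1 and 21.1 to 21.7 FPKM in the second. The part of ERBB2, KRT18, KRT19, CDH5 and LCP1 in the results below was not tested. ABCG2, the silenced gene, was 32.5, 32.7 and 33.7 FPKM in SK/EPI-siControl and 2.84, 3.47 and 2.91 FPKM in SK/EPI-siBCRP, a 10.7-fold lower mean. It was 0.0220 to 0.0750 FPKM in SK-BR-3 (2 to 6 reads) and 32.7 to 35.9 FPKM in SK/EPI.

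Of the 10 subunits, 9 had enough reads to be tested in both tables. Compared with SK-BR-3, SK/EPI cells carried more of 3 α chains (ITGA6, ITGA3 and ITGA2) and less of 4 β chains (ITGB6, ITGB4, ITGB5 and ITGB1) and of ITGA5 and ITGAV. After BCRP silencing the changes were smaller, with ITGB6, ITGA6 and ITGA2 downregulated and ITGAV, ITGA5, ITGA3 and ITGB5 upregulated. All 9 tested subunits were called in the first comparison, where 74.9% of all tested genes were called and where ITGA6 entered through its high group alone, and 7 of 9 in the second, where 38.1% were.

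**Figure D1:**
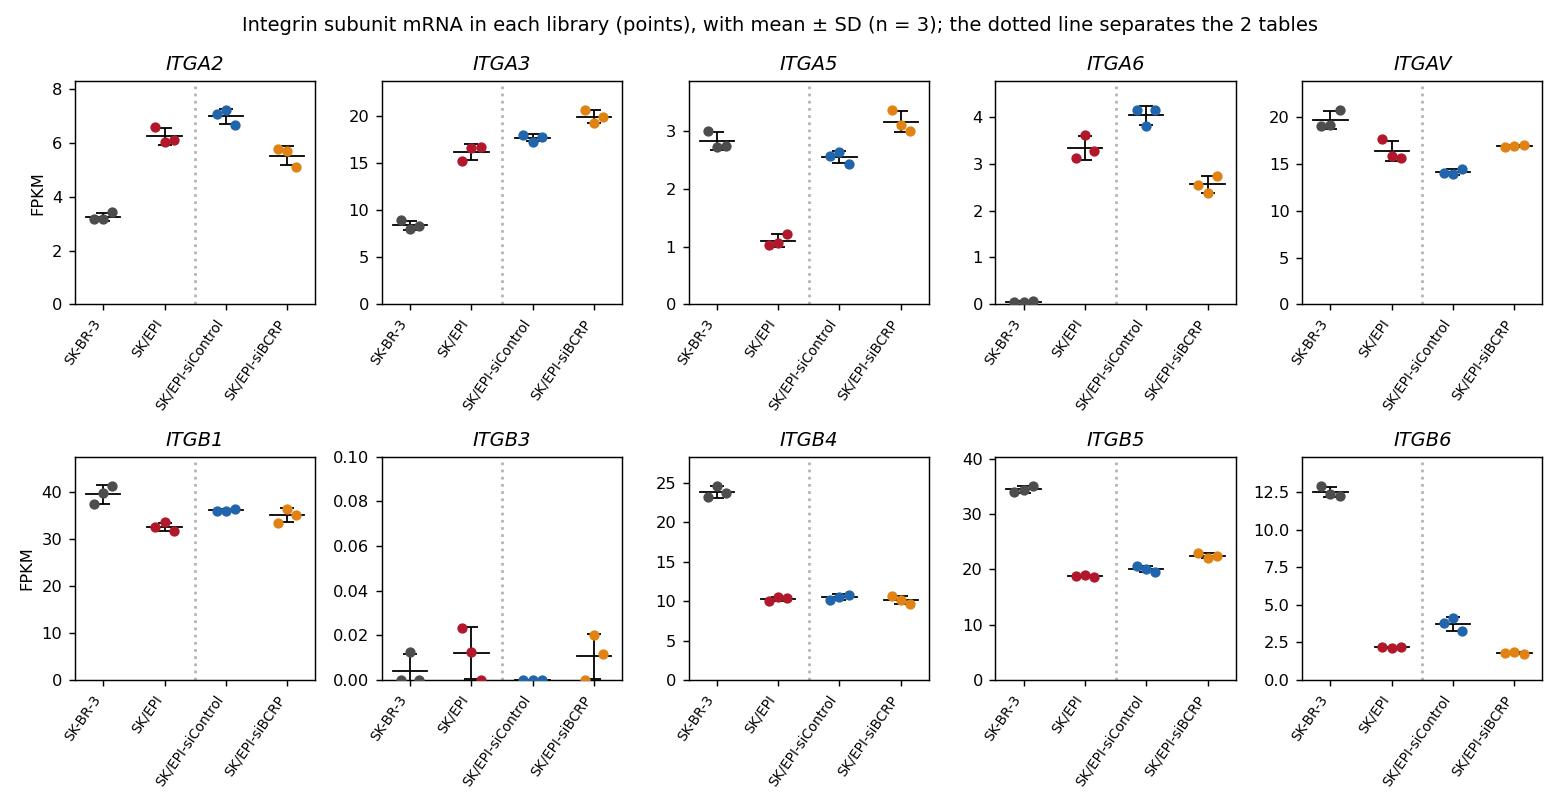
FPKM of each integrin subunit (y axis, from 0, scale set per gene) in the 4 groups (x axis), with points for the 3 libraries and bars for mean ± SD. ITGA6 is near 0 in SK-BR-3 alone, ITGB3 stays under 0.0233 FPKM in all 12 libraries, and ITGB4 and ITGB6 are highest in SK-BR-3.

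The order of the levels was alike at the top in all 4 groups. ITGB1, the β chain shared by most pairs, was the highest (39.4, 32.6, 36.1 and 35.0 FPKM in SK-BR-3, SK/EPI, SK/EPI-siControl and SK/EPI-siBCRP) and ITGB5 the second (34.5, 18.8, 20.1 and 22.5 FPKM). In SK-BR-3 they were followed by ITGB4, ITGAV, ITGB6, ITGA3, ITGA2, ITGA5, ITGA6 and ITGB3, and the ranges of neighbouring genes did not overlap. In SK/EPI the order after ITGB5 was ITGAV, ITGA3, ITGB4, ITGA2, ITGA6, ITGB6, ITGA5 and ITGB3, in which ITGAV and ITGA3 did not differ beyond their spread. In SK/EPI-siControl, ITGA3 lay above ITGAV, and the ranges of ITGA6 and ITGB6 overlapped. In SK/EPI-siBCRP, ITGA5 moved above ITGA6 and ITGB6, and no neighbours overlapped. Summed over the 5 α members, the level was 34.3 ± 1.11 FPKM in SK-BR-3 and 43.3 ± 0.315 FPKM in SK/EPI (SD, n = 3). The 5 β members summed to 110 ± 2.48 FPKM in SK-BR-3 and 63.9 ± 1.10 FPKM in SK/EPI, so the libraries of SK/EPI had higher α sums and lower β sums than those of SK-BR-3. The sums of SK/EPI-siControl and SK/EPI-siBCRP were 45.4 ± 0.507 and 48.2 ± 0.888 FPKM for the α members and 70.5 ± 0.428 and 69.5 ± 0.977 FPKM for the β members.

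To see how the resistant line differed from its parent, the laminin and collagen receptors were taken first. ITGA6 (ENSG00000091409, chromosome 2, 172427354 to 172506282, plus strand) encodes the α6 chain, which pairs with β4 or β1 and binds laminins. It was 0.0579, 0.0424 and 0.0804 FPKM in SK-BR-3, which are 6, 5 and 10 reads, and 3.12, 3.61 and 3.28 FPKM in SK/EPI, which are 399, 426 and 401 reads. The gene was thus close to undetected in every SK-BR-3 library and present in every SK/EPI library. It passed the filter on low reads through the SK/EPI libraries, so it entered the test by the group in which it was high, and its p-value is not given as support. The ratio of the group means was 55.4, and the log2 fold change of FPKM + 1 was 2.03. Of its exonic bases, 5.37% overlap genes on the opposite strand, including ITGA6-AS1, whose reads these unstranded libraries cannot tell apart.

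ITGB4 (ENSG00000132470, chromosome 17, 75721328 to 75757818, plus strand) encodes β4, whose one known partner is α6. It was 23.2, 24.6 and 23.6 FPKM in SK-BR-3 and 9.99, 10.5 and 10.4 FPKM in SK/EPI, and the groups did not overlap. The fall was 2.32-fold by the means (log2 fold change -1.14, SE 0.0365, adjusted p = 4.98e-08). The subunits of the α6β4 pair therefore went opposite ways. Set against ITGB1, the competing partner of α6, the ratio of ITGB4 to ITGB1 was 0.605 ± 0.0274 in SK-BR-3 and 0.316 ± 0.00973 in SK/EPI. In SK-BR-3 ITGB4 exceeded ITGA6 in every library by more than an order of magnitude, and in SK/EPI it still lay above ITGA6.

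ITGA3 (ENSG00000005884, chromosome 17, 50055968 to 50090481, plus strand) encodes α3, which joins β1 as a laminin-332 and laminin-511 receptor. It was 8.93, 8.004 and 8.34 FPKM in SK-BR-3 and 15.2, 16.6 and 16.7 FPKM in SK/EPI. All SK/EPI values lay above all SK-BR-3 values, with a 1.92-fold higher mean (log2 fold change 0.87, SE 0.0527, adjusted p = 2.04e-06). ITGA6 to ITGA3 was a ratio of 0.00714 ± 0.00225 in SK-BR-3 and 0.206 ± 0.0107 in SK/EPI, so ITGA3 remained the more abundant laminin-binding α mRNA. ITGA2 (ENSG00000164171, chromosome 5, 52989326 to 53094779, plus strand) encodes α2 of the collagen receptor α2β1. It was 3.18, 3.16 and 3.43 FPKM in SK-BR-3 and 6.61, 6.03 and 6.13 FPKM in SK/EPI, and its mean was likewise 1.92-fold higher (log2 fold change 0.77, SE 0.0547, adjusted p = 5.20e-06). As a share of the 5 α members, ITGA3 took 24.6% in SK-BR-3 and 37.4% in SK/EPI, and ITGA2 took 9.50% and 14.5%.

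Among the receptors for RGD proteins, ITGB6 showed the largest fall of the members. ITGB6 (ENSG00000115221, chromosome 2, 160099666 to 160200313, minus strand) encodes β6, an epithelial chain that pairs with αv and releases active TGF-β from its latent complex. It was 12.9, 12.4 and 12.2 FPKM in SK-BR-3 and 2.22, 2.10 and 2.19 FPKM in SK/EPI. The SK/EPI mean was 5.76-fold lower (log2 fold change -2.09, SE 0.0452, adjusted p = 6.56e-09). Of all tested genes, 1.18% had a lower log2 fold change. On the same strand, 20.6% of the exonic bases of ITGB6 overlap AC092153.1, which had 0 to 3 reads per library, and reads in that part cannot be assigned to one gene.

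ITGB5 (ENSG00000082781, chromosome 3, 124761948 to 124901418, minus strand) encodes β5 of the vitronectin receptor αvβ5. It was 33.9, 34.4 and 35.1 FPKM in SK-BR-3 and 18.9, 19.0 and 18.7 FPKM in SK/EPI. The replicates were tight and the groups far apart, with a 1.83-fold lower mean in SK/EPI (log2 fold change -0.84, SE 0.0291, adjusted p = 7.83e-08). ITGAV (ENSG00000138448, chromosome 2, 186590065 to 186680901, plus strand), the α chain they share, was 19.1, 19.2 and 20.8 FPKM in SK-BR-3 and 17.7, 15.9 and 15.7 FPKM in SK/EPI. It was 1.20-fold lower (log2 fold change -0.25, SE 0.0541, adjusted p = 0.00319), a smaller fall than that of ITGB5 or ITGB6.

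ITGB3 (ENSG00000259207, chromosome 17, 47253846 to 47311816, plus strand), the platelet and endothelial partner of αv, had 0 to 2 reads in each of the 12 libraries and was not tested. At most 0.0232 FPKM was listed, and 51.6% of its exonic bases overlap AC068234.1 on the same strand, a gene with 0 reads in all libraries, so reads of the shared part may be missing from both. ITGA5 (ENSG00000161638, chromosome 12, 54395261 to 54419460, minus strand) encodes the fibronectin receptor chain α5. It was 3.01, 2.72 and 2.75 FPKM in SK-BR-3 and 1.02, 1.06 and 1.23 FPKM in SK/EPI, a 2.56-fold lower mean (log2 fold change -0.86, SE 0.0637, adjusted p = 6.32e-06). ITGB1 (ENSG00000150093, chromosome 10, 32900319 to 33005792, minus strand) was 37.4, 39.6 and 41.3 FPKM in SK-BR-3 and 32.4, 33.5 and 31.7 FPKM in SK/EPI. Its fall was 1.21-fold (log2 fold change -0.27, SE 0.0422, adjusted p = 0.000582). Of the 50-base words of ITGB1 transcripts, 8.87% also occur in the pseudogene AC022149.1, so part of its reads could be split between them.

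In sum, 3 of 9 tested members rose, ITGA6 among them, where 37.9% of all tested genes did, and 6 fell, where 37.0% did. The median log2 fold change was -0.27 over the members and 0.01 over all tested genes. The values of SK-BR-3 and SK/EPI did not overlap for any of the 9, which was so for 77.7% of tested genes. A log2 fold change of 1 or more in either direction was reached by 3 members (ITGA6, ITGB4 and ITGB6) that were also called, and both held for 14.4% of all tested genes.

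**Figure D2:**
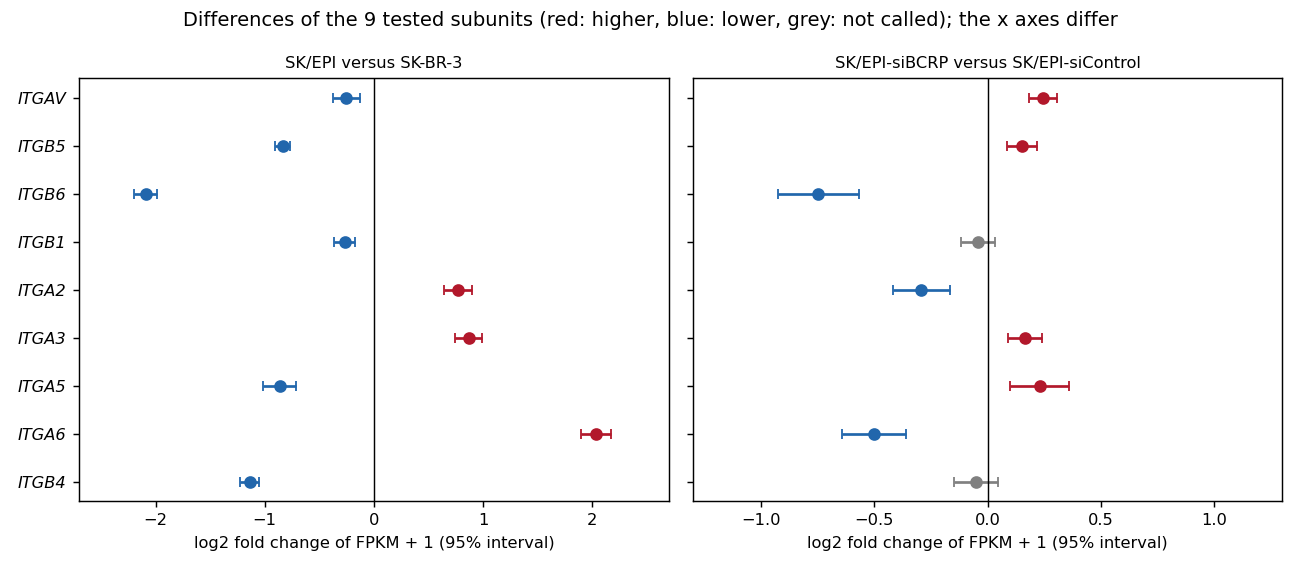
Log2 fold change of FPKM + 1 (x axis, points, with 95% intervals) for the 9 tested subunits (y axis) in both comparisons, whose x axes differ in range. ITGB6 lies lowest in both panels, ITGA6 lies at 2.03 on the left and at -0.50 on the right, and the intervals of ITGB1 and ITGB4 include 0 on the right.

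BCRP silencing was compared next with the control siRNA, to see which subunits moved when ABCG2 was reduced. The largest change was again that of ITGB6, which was 3.79, 4.15 and 3.25 FPKM in SK/EPI-siControl and 1.81, 1.87 and 1.75 FPKM in SK/EPI-siBCRP. These are 301 to 405 and 159 to 197 reads, and every knockdown library lay below every control library. ITGB6 was downregulated 2.06-fold (log2 fold change -0.75, SE 0.0762, adjusted p = 0.000294), and 0.859% of tested genes had a lower log2 fold change. Its partner chain αv and the β5 chain went the other way. ITGAV was 14.1, 13.9 and 14.5 FPKM in SK/EPI-siControl and 16.8, 16.97 and 17.1 FPKM in SK/EPI-siBCRP, a 1.20-fold rise (log2 fold change 0.24, SE 0.0259, adjusted p = 0.000355). ITGB5 was 20.7, 20.1 and 19.6 FPKM in SK/EPI-siControl and 22.9, 22.1 and 22.5 FPKM in SK/EPI-siBCRP, a 1.12-fold rise (log2 fold change 0.15, SE 0.0281, adjusted p = 0.00466). Both rises were small but larger than the spread between libraries.

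The laminin and collagen receptors divided as well. ITGA6 was 4.14, 3.80 and 4.14 FPKM in SK/EPI-siControl and 2.56, 2.37 and 2.75 FPKM in SK/EPI-siBCRP, which is 1.58-fold lower (log2 fold change -0.50, SE 0.0597, adjusted p = 0.000633). ITGA2 was 7.09, 7.22 and 6.66 FPKM in SK/EPI-siControl and 5.77, 5.70 and 5.11 FPKM in SK/EPI-siBCRP, which is 1.26-fold lower (log2 fold change -0.29, SE 0.0535, adjusted p = 0.00462). ITGA3, which also binds laminins, was higher instead, with 18.0, 17.3 and 17.8 FPKM in SK/EPI-siControl and 20.7, 19.3 and 19.9 FPKM in SK/EPI-siBCRP (log2 fold change 0.16, SE 0.0316, adjusted p = 0.00592). The ratio of ITGA6 to ITGA3 was 0.227 ± 0.00669 in SK/EPI-siControl and 0.128 ± 0.00854 in SK/EPI-siBCRP. ITGB4 was 10.2, 10.5 and 10.8 FPKM in SK/EPI-siControl and 10.6, 10.1 and 9.63 FPKM in SK/EPI-siBCRP, and these values overlapped. Its log2 fold change was -0.05 with a 95% interval from -0.15 to 0.05 (adjusted p = 0.379), so a change of the size seen for ITGA6 lies outside the interval.

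The fibronectin receptor chain ITGA5 was 2.56, 2.64 and 2.44 FPKM in SK/EPI-siControl and 3.36, 3.11 and 3.01 FPKM in SK/EPI-siBCRP, a 1.24-fold rise (log2 fold change 0.23, SE 0.0551, adjusted p = 0.0148). Without SK/EPI-siControl replicate 3, the log2 fold change was 0.21 and the adjusted p 0.0503. ITGB1, its partner, was 36.0, 36.0 and 36.3 FPKM in SK/EPI-siControl and 33.4, 36.4 and 35.2 FPKM in SK/EPI-siBCRP, and the groups overlapped. The log2 fold change of ITGB1 was -0.04 with a 95% interval from -0.12 to 0.03 (adjusted p = 0.340). ITGB3 stayed at 0 reads in SK/EPI-siControl and 0 to 2 reads in SK/EPI-siBCRP. With 3 reads as the floor, ITGB3 was at or under it in all 4 groups and no fold change is given.

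In all, 4 of 9 tested members rose after BCRP silencing, where 19.4% of all tested genes did, and 3 fell, where 18.7% did. The median log2 fold change was -0.04 over the members and -0.004 over all tested genes. The values of the siRNA groups did not overlap for 7 of 9 members, which was so for 50.9% of tested genes. No member reached a log2 fold change of 1 in either direction on this scale, while 0.411% of tested genes reached it and were called.

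Across the comparisons, which share no library, 7 members were called in both. ITGB6 was lower and ITGA3 higher in both. ITGA6 and ITGA2 were higher in SK/EPI than in SK-BR-3 and lower after BCRP silencing, while ITGB5, ITGAV and ITGA5 were lower and then higher. Opposite directions were thus seen for 5 of 7 members, against 52.7% of the 4892 genes called in both comparisons. Untransfected SK/EPI and SK/EPI-siControl are the same line in 2 tables, and side by side their means were 1.10 and 2.55 FPKM for ITGA5 and 2.17 and 3.73 FPKM for ITGB6. The gap of ITGA5 is larger than its change with BCRP silencing and that of ITGB6 is smaller, and transfection and table cannot be told apart for them. As ratios of the means, the other 7 tested members lay closer in SK/EPI and SK/EPI-siControl, as did ITGB4 with 10.3 and 10.5 FPKM. ITGAV was 16.4 FPKM in SK/EPI, 14.2 in SK/EPI-siControl and 16.9 in SK/EPI-siBCRP, so after silencing it lay near its untransfected level. The gap of ITGB1, 32.6 to 36.1 FPKM, is larger than its change with silencing. Transfection and table cannot be told apart for these genes either.

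The siRNA itself was checked against the members, a step chosen after their values had been seen. The study's supplement names siBCRP #1 for the knockdown libraries, and its guide strand is shown with bases 2 to 8, the seed, in capitals.
siBCRP #1, lower strand: aUAACCAGcugauucaaaguauccc
It is complementary to positions 1368 to 1392 of the ABCG2 transcript ENST00000237612.7. The seed match CTGGTTA was in the 3′ UTR of 0 of the 10 members. It was in that of 1099 of 12791 tested genes with a 3′ UTR (8.59%). ITGA2 and ITGA6 each held 1 match elsewhere in the transcript. No share over all genes was computed for whole transcripts, and the part of these matches was not tested.

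αv can pair with any of 5 β chains, and the balance of those made with αv alone or nearly so is given as a description. Of the summed FPKM of ITGB3, ITGB5 and ITGB6, ITGB6 took 27.6%, 26.5% and 25.9% in SK-BR-3 and 10.5%, 9.96% and 10.5% in SK/EPI. It took 15.5%, 17.1% and 14.2% in SK/EPI-siControl and 7.31%, 7.78% and 7.24% in SK/EPI-siBCRP. ITGB5 took nearly all of the rest, 73.4 ± 0.865% in SK-BR-3, 89.6 ± 0.318% in SK/EPI, 84.4 ± 1.43% in SK/EPI-siControl and 92.5 ± 0.327% in SK/EPI-siBCRP. The share of ITGB6 was thus lower in each SK/EPI library than in each SK-BR-3 library, and lower in each SK/EPI-siBCRP library than in each SK/EPI-siControl library.

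A further αv partner, ITGB8, is not among the 10 but belongs to the same count. ITGB8 encodes β8, another chain that frees TGF-β from its latent complex. It was 0.0291, 0.0329 and 0.0589 FPKM in SK-BR-3 (7 to 17 reads) and 5.44, 5.14 and 5.00 FPKM in SK/EPI (1407 to 1617 reads). From a level close to 0 it passed that of ITGB6 in SK/EPI, with a log2 fold change of 2.57. Like ITGA6, it passed the filter through the SK/EPI libraries, so no p-value is given. With ITGB8 counted in, ITGB8 took 0.0856 ± 0.0338% of the αv-partner FPKM in SK-BR-3 and 19.8 ± 0.612% in SK/EPI, while ITGB6 took 26.6 ± 0.874% and 8.28 ± 0.238%. After BCRP silencing ITGB8 rose from 3.58 ± 0.171 to 4.18 ± 0.0758 FPKM (log2 fold change 0.18, adjusted p = 0.0233), while ITGB6 fell. The mean of ITGB8 in untransfected SK/EPI, 5.19 FPKM, lies further from SK/EPI-siControl than this rise, and transfection and table cannot be told apart.

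**Figure D3:**
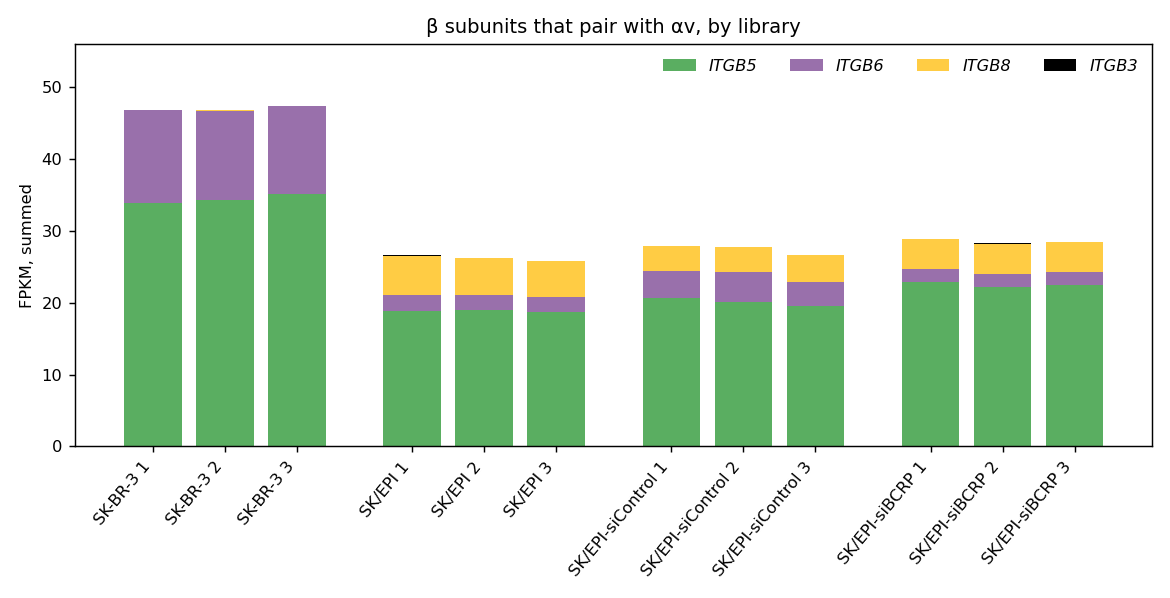
FPKM of the 4 β subunits that pair mainly with αv, stacked for each of the 12 libraries (y axis: summed FPKM, from 0). ITGB6 is the second largest part in SK-BR-3, ITGB8 is visible in the 9 SK/EPI-derived libraries, and ITGB3 is too low to see in most bars.

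Of the 15 other integrin genes listed with ITGB8, most were low. In the first comparison 9 of the 16 had enough reads, of which 2 rose (ITGB8 and ITGA2B) and 4 fell (ITGAE, ITGAL, ITGAM and ITGB2), and among the fallers ITGAE alone exceeded 1 FPKM, with 2.80 ± 0.286 FPKM in SK-BR-3 and 1.99 ± 0.298 FPKM in SK/EPI (adjusted p = 0.00886). In the second comparison 7 were tested and ITGB8 alone was called.

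The ligands come next. Of 25 laminin and collagen genes 22 were tested, and 14 rose and 7 fell in SK/EPI. LAMC1, the γ1 chain of most laminins, was 0.239 ± 0.0139 FPKM in SK-BR-3 and 38.9 ± 1.04 FPKM in SK/EPI, and COL4A5 of basement-membrane collagen IV was 0.562 ± 0.0767 and 11.3 ± 0.216 FPKM (adjusted p = 9.97e-11 and 3.67e-09). COL5A2 and COL6A1 were the largest falls, from 1.67 to 0.200 FPKM and from 1.65 to 0.497 FPKM. Of 16 genes of RGD ligands 13 were tested, and 5 rose and 7 fell. VTN, vitronectin and a ligand of αvβ5, rose from 0.544 ± 0.103 to 141 ± 4.32 FPKM (adjusted p = 8.47e-11), and SPP1, osteopontin, from 0 in every SK-BR-3 library to 46.0 ± 2.04 FPKM (at least 625-fold higher, against 3 reads per library). TGFB3, a latent TGF-β form, fell from 35.2 ± 1.00 to 1.12 ± 0.167 FPKM (adjusted p = 1.25e-09), and NPNT, the basement-membrane protein nephronectin, from 13.8 ± 0.659 to 0.389 ± 0.0265 FPKM (adjusted p = 1.61e-09).

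After BCRP silencing, 4 of 20 tested laminin and collagen genes rose, led by COL7A1 (0.895 to 1.27 FPKM) and LAMB3 of laminin-332 (46.5 to 55.5 FPKM), and 7 fell, led by LAMA4 (2.53 to 1.79 FPKM) and COL4A6 (2.66 to 1.90 FPKM). Of 14 tested RGD ligand genes, EDIL3 alone rose (26.8 to 28.7 FPKM) and 5 fell. The falls were led by THBS1, thrombospondin 1 (17.9 ± 0.586 to 8.39 ± 0.0635 FPKM, adjusted p = 2.99e-06) and FN1, fibronectin (1.89 to 1.22 FPKM, adjusted p = 0.00214). In untransfected SK/EPI the means of EDIL3, THBS1 and FN1 were 46.1, 41.8 and 9.19 FPKM. Each lies further from SK/EPI-siControl than the change with silencing, and transfection and table cannot be told apart for them. LAMB3, LAMA4 and COL4A6 had 25.3, 1.62 and 1.18 FPKM in untransfected SK/EPI, also further off than their change with silencing. COL7A1 had 1.27 FPKM there, its level after silencing. The same limit holds for these genes.

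Inside the cell, all 23 activator and adaptor genes were tested, and 11 rose and 8 fell in SK/EPI. FERMT1, the epithelial kindlin that binds β tails, rose from 0.155 ± 0.0531 to 6.27 ± 0.397 FPKM (adjusted p = 1.29e-08), and APBB1IP, which brings talin to RAP1, from 0 to 4.73 ± 0.395 FPKM (at least 110-fold higher). The GTPase RAP1A and the blood-cell kindlin FERMT3 were the largest falls, from 10.01 to 4.47 FPKM and from 1.25 to 0.313 FPKM. After BCRP silencing 2 rose and 4 fell. TLN1, talin, rose from 22.9 to 29.8 FPKM and VCL, vinculin, from 32.6 to 36.5 FPKM, while TNS2 fell from 3.46 to 2.87 FPKM and FERMT1 from 4.29 to 3.68 FPKM (adjusted p = 0.0220). In untransfected SK/EPI the means of TLN1, VCL, TNS2 and FERMT1 were 30.9, 36.6, 1.56 and 6.27 FPKM. Those of TLN1, TNS2 and FERMT1 lie further from SK/EPI-siControl than the change with silencing. VCL lay there at about its level after silencing. Transfection and table cannot be told apart for these genes.

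Of 18 signalling genes 8 rose and 7 fell in SK/EPI, with PTK2B, a kinase related to FAK (2.43 to 14.0 FPKM), and the SRC-family kinase FYN (0.430 to 2.60 FPKM) the largest rises and ELMO1 (2.45 to 0.0223 FPKM) and ARHGEF7 (10.4 to 4.06 FPKM) the largest falls. After BCRP silencing 1 of 17 rose, PTK2 itself, which encodes FAK (5.19 to 5.82 FPKM, adjusted p = 0.0461), and 6 fell, led by the adaptors CRK (26.4 to 18.7 FPKM) and CRKL (18.4 to 13.2 FPKM). Of 8 genes listed for restraining integrin activation, 4 rose and 3 fell in SK/EPI, with DOK1 (0.823 to 2.69 FPKM) and KANK1 (1.85 to 2.71 FPKM) the largest rises and CIB1 (60.2 to 28.3 FPKM) the largest fall. After silencing 3 rose, led by FLNA, filamin A (91.6 to 115 FPKM), and ITGB1BP1 (4.41 to 5.41 FPKM), and 2 fell, KANK2 (8.31 to 7.03 FPKM) and KANK1 (3.29 to 2.83 FPKM). ITGB1BP1 (5.545 FPKM) and KANK1 (2.71 FPKM) in untransfected SK/EPI lie further from SK/EPI-siControl than these changes. Transfection and table cannot be told apart for them.

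The list of integrin partners at hemidesmosomes or beside integrins in the membrane held 12 genes, all tested. In SK/EPI 5 rose and 6 fell. PLEC, the plectin that links the β4 tail to keratins, fell from 55.6 ± 1.79 to 27.4 ± 0.628 FPKM, a 2.03-fold fall beside the 2.32-fold fall of ITGB4, and the tetraspanin CD151 from 111 to 59.0 FPKM (adjusted p = 8.01e-08 and 4.86e-07). DST, of the same list, went the other way, from 1.87 to 4.24 FPKM, 2.27-fold higher (adjusted p = 3.56e-06). CAV1, caveolin 1, rose from 4.61 to 23.3 FPKM and PLAUR, the urokinase receptor, from 2.50 to 9.61 FPKM. After BCRP silencing 6 rose, led by the tetraspanins CD9 (62.9 to 89.7 FPKM) and CD81 (27.4 to 35.3 FPKM), and 3 fell, led by CD47 (12.4 to 9.97 FPKM) and CAV1 (17.3 to 14.0 FPKM). CD9 was 89.1 FPKM in untransfected SK/EPI, about its level after silencing. CD47 and CAV1, with 17.2 and 23.3 FPKM there, lie further from SK/EPI-siControl than their change with silencing. Transfection and table cannot be told apart for these genes. Together 49 of the other genes of the pathway rose and 42 fell in SK/EPI, and 18 rose and 27 fell after BCRP silencing. Over all tested genes, 37.9% rose and 37.0% fell in SK/EPI, and 19.4% rose and 18.7% fell after BCRP silencing. The median log2 fold change in SK/EPI was 0.38 over the laminins and collagens and -0.21 over the RGD ligands, and from -0.10 to 0.10 over the other lists, beside 0.01 over all tested genes. After BCRP silencing it ran from -0.07 to 0.10 over the lists, beside -0.004. Called in SK/EPI were 21 of 22 laminins and collagens, 12 of 13 RGD ligands and 19 of 23 activators and adaptors. So were 15 of 18 signalling genes, 7 of 8 inhibitors, 11 of 12 hemidesmosome and membrane partners and 6 of 9 other integrin genes. The background was 74.9% of all tested genes. After BCRP silencing, in the same order, the counts were 11 of 20, 6 of 14, 6 of 23 and 7 of 17. The remaining lists had 5 of 8, 9 of 12 and 1 of 7, beside a background of 38.1%. The lists were chosen with earlier results of the data known.

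**Figure D4:**
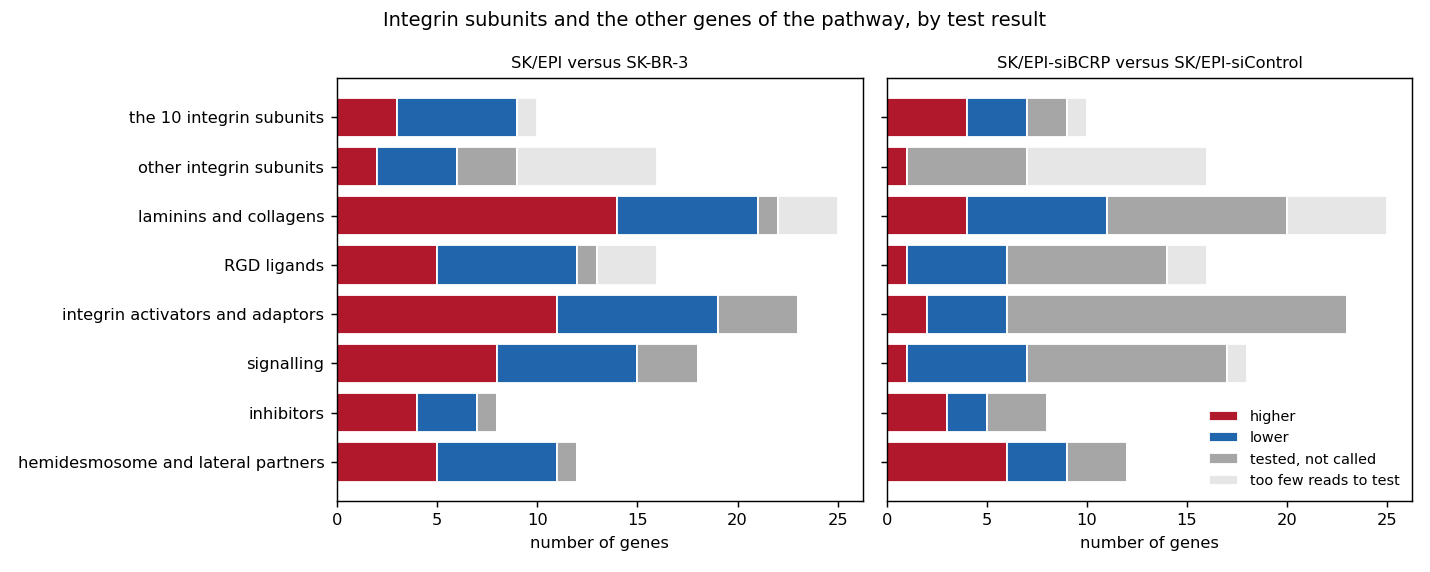
Number of genes (x axis) that were higher, lower, tested but not called, or too low to test in each list (y axis), in both comparisons. Red and blue fill most bars on the left, and grey fills more of them on the right, as in the activators and adaptors with 19 and 6 called genes.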

How the data were processed

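RNA-seq was done on poly-A RNA of 12 libraries in 4 groups of 3. The deposited values are FPKM per gene, which the authors made from reads mapped to hg38, per the labels, with HISAT2 2.0.5, featureCounts 1.5.0-p3 and DESeq2 1.16.1 named among the submitters' tools. How reads in overlapping genes were treated is not given in the sources used here. Each FPKM value multiplied by its GENCODE 29 exon length and its library's scale gave a whole number of reads (100% of values within 0.01 reads), from which the low-count filter (at least 10 reads at the median depth in at least 3 libraries, and 15 in all) and the reads printed were taken. The named genes of each list were the 2 largest rises and 2 largest falls among called genes whose mean reached 1 FPKM in a group. DST was named besides, as a gene that went against PLEC. A gene that this rule names is not reported here.

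The authors compared groups as unpaired, so limma 3.58.1 (R 4.3.3) was fitted to log2(FPKM + 1) per table without a replicate term, with the trend option and Benjamini-Hochberg adjustment over all tested genes. It was tested on simulated data. The library titles give replicate numbers but state no pairing, so the numbers were also tried as a block. Sequences came from GENCODE 29 transcripts, RefSeq promoters (GRCh38.p14) and the study's oligo table. Members and lists were chosen with earlier results of these data known. Each library's depth, 15830381 to 20545811 reads on genes, sets the counting error, and reads without molecular identifiers are not independent molecules.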

Additional observations from a re-analysis of the deposited data

How the results depend on the processing

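Of 251 refitted log2 fold changes of the 9 tested subunits, over other pseudocounts, filters, scalings, a count model and left-out libraries, none changed direction and 1 lost its call, that of ITGA5 after BCRP silencing without SK/EPI-siControl replicate 3. With at least 10 reads required in every library, ITGA6 could not be tested in the first table, which left 8 subunits and 74 other genes of the pathway called in SK/EPI. Requiring a log2 fold change of 1 or more in either direction left 3 subunits in SK/EPI and 0 after BCRP silencing, and 31 and 1 of the other genes of the pathway, since it removes small changes by construction. Over the refits, the log2 fold change of ITGB6 after BCRP silencing ran from -1.04 to -0.68, against -0.75 in the main fit. With 1 library left out in turn, 9 subunits (lowest and highest 9) were called in SK/EPI and 6 to 7 after BCRP silencing, and 90 to 92 and 35 to 40 of the other genes, against 91 and 45 with all libraries. The replicate block gave 9 and 7 subunits and 91 and 39 other genes. Same-numbered libraries correlated by -0.05 to -0.002 in the first table and by 0.009 to 0.06 in the second. In the second, 4 libraries correlated best with their own number, against 0 in the first. The mean there was 0.03 for same and -0.01 for different numbers, so a weak pairing cannot be told from none. The block changed no call of a subunit. The count model on recovered reads (limma-voom) called 12128 and 7042 of all genes, against 11854 and 6215, and put the median log2 fold change of all genes in the first table at 0.10, with the direction of each subunit kept. On recovered reads, which are not divided by exon length, ITGB5 took 79.1%, 92.2%, 88.2% and 94.4% of the reads of ITGB3, ITGB5 and ITGB6 in SK-BR-3, SK/EPI, SK/EPI-siControl and SK/EPI-siBCRP, ITGB6 took 20.9%, 7.72%, 11.8% and 5.53%, and the ratio of ITGB4 to ITGB1 was 0.680, 0.355, 0.328 and 0.326. With ITGB8 counted in, ITGB8 took 0.217% of the recovered reads in SK-BR-3 and 37.4% in SK/EPI, and ITGB6 20.8% and 4.83%. The log2 fold change of ITGA6 in SK/EPI was 4.43 with a pseudocount of 0.1 and 5.81 with limma-voom, against 2.03. Depth limits ITGB3, with at most 2 reads per library, and ITGA6 in SK-BR-3, with at most 10.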
